A study of Homo sapiens with 8 samples.

Results

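Short hairpin RNAs of 2 designs against the same gene, TOX, were set side by side in T cell acute lymphoblastic leukaemia (T-ALL), a cancer of immature T cells. The hairpin labelled shTOX-1 left most of the TOX signal in place and the hairpin labelled shTOX-2 removed more of it. The comparison was between the 2 arrays of shTOX-1 cells and the 2 arrays of shTOX-2 cells, chosen by their titles and paired by cell line, 4 of the 8 arrays of the series. The lines were CCRF-CEM and HPB-ALL, both established human T-ALL lines. Each line had 1 array of cells with shTOX-1, 1 with shTOX-2, 1 with a scramble shRNA that serves as the control for transduction, and 1 of untransduced cells. Transduced cells of all 3 kinds had been spinoculated, selected with puromycin and kept for at least 2 weeks before total RNA was taken, so they shared an integrated transgene and drug selection that the untransduced cells lacked. Each construct was a single stable culture per line as far as the labels say, and replication across lines was the only kind available. The error behind a p-value of the hairpin comparison is therefore the spread of construct differences between the lines, over all 4 constructs. Line-specific responses and technical variation can both enter it and cannot be told apart.

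TOX is a nuclear protein with an HMG-box, a domain that binds and bends DNA, and it is needed for the development of CD4 T cells in the thymus. It is expressed in many T-ALL cells. A short hairpin RNA is cut by the cell into a small RNA that guides the silencing complex to a matching transcript; 2 hairpins against 1 gene carry different guide sequences, and what they share is the target. The sequences of the hairpins were not used here.

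TOX stood lowest in the shTOX-2 array of each line and between scramble and shTOX-2 in the shTOX-1 array. CCRF-CEM cells gave log2 levels of 9.86 under shTOX-2, 10.65 under shTOX-1 and 11.03 in both controls. HPB-ALL cells gave 8.75 under shTOX-2, 10.16 under shTOX-1, 10.59 under scramble and 10.64 without a construct. With 1 array per hairpin in each line, the shTOX-2 arrays carried 58% of the shTOX-1 signal in CCRF-CEM and 37.7% in HPB-ALL. The fitted difference, shTOX-2 minus shTOX-1, was -1.10 ± 0.20 on the log2 scale (standard error from limma over all 8 arrays), which leaves 46.8% of the signal. Over all 8930 tested genes this had a limma adjusted p of 0.283, rank 18 by p. Exchanging the hairpin labels within lines allows 4 assignments, and an exact two-sided permutation test over them gave p = 0.5, the smallest possible. TOX4, a close relative, differed by 0.02 in CCRF-CEM and 0.01 in HPB-ALL. TOX2 differed by 0.14 in CCRF-CEM and -0.58 in HPB-ALL, where its shTOX-2 array stood at 5.08, just under the level of 5.18 (the 40th percentile of gene means) at which genes entered the tests. Among the other HMG-box genes none passed, and as a list they did not follow TOX. Of 15 tested members, TOX included, 7 were lower and 8 higher in shTOX-2, with a median of 0.005. In both lines 4 were lower and 7 higher. After TOX, the members with the smallest p were all on the lower side. LEF1, a partner of beta-catenin, stood at -0.16 and -0.43 in CCRF-CEM and HPB-ALL, and BBX at -0.20 and -0.36. HBP1, a repressor of cell cycle genes, stood at -0.19 and -0.44.

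**Figure D1:**
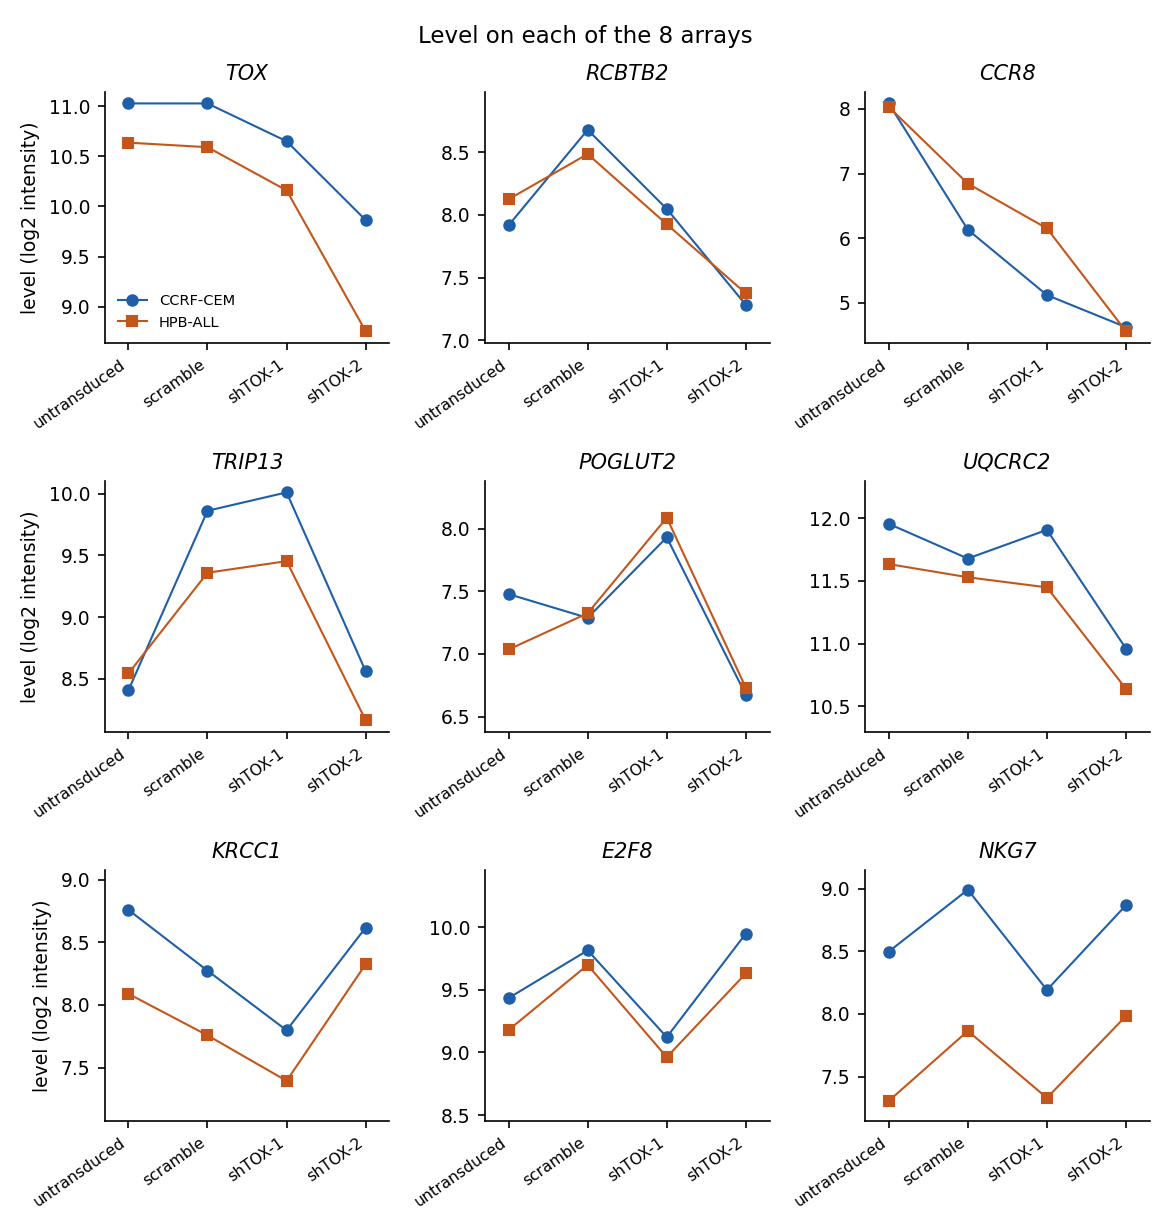
Level (log2 intensity) of 9 genes on each of the 8 arrays, ordered as untransduced, scramble, shTOX-1 and shTOX-2; blue circles are CCRF-CEM, orange squares HPB-ALL, each point is 1 array and the lines only join the arrays of a cell line. TOX, RCBTB2 and CCR8 step down from scramble to shTOX-1 to shTOX-2 in both lines, TRIP13, POGLUT2 and UQCRC2 are low in shTOX-2 with shTOX-1 at or above scramble in all but UQCRC2 in HPB-ALL, and KRCC1, E2F8 and NKG7 are lower in shTOX-1 than in scramble and shTOX-2.

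The arrays of the hairpins resembled each other more than any other pair of the same line. Across the tested genes, shTOX-1 and shTOX-2 correlated at r = 0.985 in CCRF-CEM and 0.985 in HPB-ALL, and the other pairs within a line at 0.949 to 0.983; genes are not independent replicates. The standard deviation of the hairpin difference over genes was 0.286 and 0.295, against 0.304 to 0.519 for the other pairs. T cell identity held on all arrays: 7 of 8 measured T cell markers, among them BCL11B, LCK and CD5, lay above the filter level on all 8 arrays, and CD2 did so only on the 4 CCRF-CEM arrays. The summed linear intensity of these markers was 6250 with shTOX-1 and 6500 under shTOX-2 in CCRF-CEM, and in HPB-ALL 3200 and 2430. Markers of other lineages were in part near the floor and in part above it: of 10 measured myeloid markers 4 lay below the filter level on every array, CD14 among them, and so did 4 of 8 B cell markers, EBF1 among them. On their highest array CD68 reached 7.46 and SPI1 6.69, and EPOR, an erythroid marker, 8.21. The pre-B cell receptor genes IGLL1 and VPREB1 reached 9.07 and 7.61. The summed B cell markers were 498 and 373 with shTOX-1 and shTOX-2 in CCRF-CEM, and in HPB-ALL 350 and 380. The part of these markers in the hairpin differences was not tested. The summed myeloid markers were 383 and 381 with shTOX-1 and shTOX-2 in CCRF-CEM, and in HPB-ALL 466 and 718, where MPO made up most of the gap. Since RNA came from bulk cultures, fewer cells of a kind and less RNA per cell cannot be told apart in any value given here.

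The question put to the whole table was which genes separate the stronger hairpin from the weaker one in both lines. No gene passed: limma called 0 of 8930 genes at an adjusted p under 0.05 (0%), with a smallest adjusted p of 0.283 shared by the leading genes. At an unadjusted p under 0.05 there were 460 genes lower in shTOX-2 (5.15%) and 136 higher (1.52%); at an unadjusted p under 0.001 there were 23 lower and 3 higher. A difference of at least 0.25 in the same direction in both lines was seen for 664 genes lower in shTOX-2 (7.44%) and 246 higher (2.75%), and one of at least 0.25 in opposite directions for 323 genes (3.62%). Across genes the hairpin differences of the lines correlated at r = 0.225, and 59% of genes had the same sign in both.

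The excess of lower genes depended on how the arrays were set to a common scale. Over the tested genes the median of the shTOX-2 array lay below that of the shTOX-1 array in both lines, 7.56 against 7.677 in CCRF-CEM and 7.641 against 7.732 in HPB-ALL, although the medians of all probe sets, unnamed ones included, lay between 4.62 and 4.71. When each array was centred on the median of its tested genes, which moved the median hairpin difference of all genes from -0.042 to 0.062, the split turned to 183 lower and 395 higher at an unadjusted p under 0.05, and to 280 lower and 628 higher by 0.25 in both lines. Quantile normalization kept it at 432 lower and 141 higher, and 591 lower and 243 higher. The same held for the largest differences: at 0.75 or more in both lines 19 genes were lower and 2 higher in the deposited values, 16 and 2 after quantile normalization, and 6 and 6 after centring. The shift was uneven over levels. With genes in 5 equal bins of mean level, those in the lowest bin (5.18 to 6.03) had a median hairpin difference of 0.046 in CCRF-CEM and 0.032 in HPB-ALL, whereas those in the middle bin (7.12 to 8.11) had -0.103 and -0.077.

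**Figure D2:**
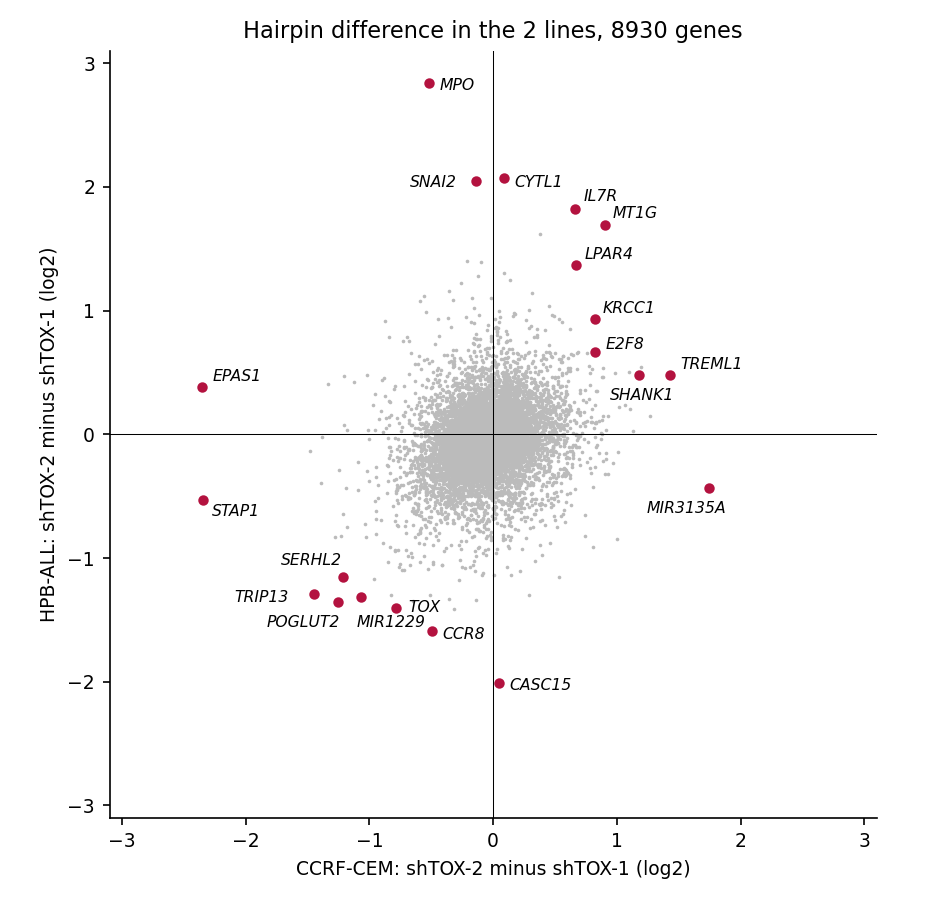
Hairpin difference (shTOX-2 minus shTOX-1, log2) of each of 8930 tested genes in CCRF-CEM (x axis) against that in HPB-ALL (y axis); grey points are genes and red points are named ones. TRIP13, POGLUT2, SERHL2, MIR1229 and TOX lie low in both lines, KRCC1, E2F8, LPAR4, IL7R and MT1G lie high in both, and EPAS1, STAP1, MIR3135A, MPO, CYTL1, SNAI2 and CASC15 stand out in 1 line.

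The genes that led the lower side belong to several unrelated processes. POGLUT2, an enzyme of the endoplasmic reticulum that adds glucose to EGF repeats such as those of NOTCH receptors, differed by -1.26 in CCRF-CEM and -1.36 in HPB-ALL. Its log2 levels in CCRF-CEM were 7.29 with scramble, 7.93 with shTOX-1, 6.67 with shTOX-2 and 7.48 untransduced, and in HPB-ALL 7.32, 8.09, 6.73 and 7.04 in the same order. The shTOX-1 arrays were the highest of their line and the shTOX-2 arrays the lowest, so that the controls lay between the hairpins; the fitted difference was -1.31 ± 0.18, or 2.47-fold lower, with a limma adjusted p of 0.283.

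TRIP13, an ATPase that disassembles the mitotic checkpoint complex and acts in meiotic recombination, differed by -1.45 in CCRF-CEM and -1.29 in HPB-ALL (fit -1.37 ± 0.19, 2.58-fold lower, limma adjusted p = 0.283). Its levels in CCRF-CEM were 9.86 with scramble, 10.01 with shTOX-1, 8.56 with shTOX-2 and 8.41 untransduced, and in HPB-ALL 9.36, 9.45, 8.16 and 8.54. Here the scramble and shTOX-1 arrays stood together, and shTOX-2 stood with the untransduced cells. UQCRC2, a core subunit of respiratory complex III, was the reverse in this respect. It stood at 11.68 with scramble, 11.91 with shTOX-1, 10.96 with shTOX-2 and 11.96 untransduced in CCRF-CEM, and at 11.53, 11.45, 10.64 and 11.63 in HPB-ALL, so that only the shTOX-2 arrays lay apart (fit -0.88 ± 0.14).

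NSF, the ATPase that recycles SNARE complexes in membrane traffic, stood at 9.71 with scramble, 9.71 with shTOX-1, 8.88 with shTOX-2 and 9.39 untransduced in CCRF-CEM, and at 10.17, 10.26, 8.96 and 9.83 in HPB-ALL. The value is uncertain as to the gene, because NSFP1, a near-identical pseudogene copy with its own probe set, differed in the same direction, by -0.40 in CCRF-CEM and -0.44 in HPB-ALL. Other genes of membrane traffic were among the leading 12: SEC23A, a coat protein of vesicles that leave the endoplasmic reticulum, at -1.18 and -0.75 in CCRF-CEM and HPB-ALL, and SYPL1, a vesicle membrane protein, at -0.75 and -1.04. REEP3, which keeps endoplasmic reticulum away from mitotic chromosomes, stood at -0.89 and -0.88. ANKRD13C, a chaperone of membrane receptors, stood at -1.03 and -0.83. NMD3, the export adaptor of the large ribosomal subunit, stood at -1.04 and -0.73, and DCK, the deoxycytidine kinase that activates cytarabine and other nucleoside drugs, at -0.80 and -0.94. None of these passed, with limma adjusted p of 0.283 for each of the 12.

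DTX1, a direct NOTCH target in T cells that encodes a ubiquitin ligase, differed by -0.96 in CCRF-CEM and -1.17 in HPB-ALL (fit -1.07 ± 0.24, limma adjusted p = 0.486). It stood at 7.71 with scramble, 7.63 with shTOX-1, 6.68 with shTOX-2 and 7.29 untransduced in CCRF-CEM, and at 7.03, 7.31, 6.13 and 7.66 in HPB-ALL, so that shTOX-2 was the lowest array in both lines. XRCC4, which joins DNA ends together with DNA ligase IV in non-homologous end joining, the repair pathway in which TOX has been studied in T-ALL, was the most different gene of that pathway. Its levels were 8.64 with scramble, 8.78 with shTOX-1, 8.0 with shTOX-2 and 8.36 untransduced in CCRF-CEM, and in HPB-ALL 8.51, 8.86, 8.13 and 8.48. The fitted difference was -0.76 ± 0.14 with a limma adjusted p of 0.311; shTOX-1 was the highest and shTOX-2 the lowest array of each line. SERHL2, a hydrolase-like gene, differed by -1.21 and -1.16, but its HPB-ALL arrays lay at 4.01 to 5.16, below the filter level, so that the size of this difference is limited there.

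The higher side held fewer genes and smaller differences. KRCC1, a gene of little known function, led it at 0.82 in CCRF-CEM and 0.93 in HPB-ALL (fit 0.88 ± 0.15, 1.83-fold, limma adjusted p = 0.283). Its levels were 8.27 with scramble, 7.80 with shTOX-1, 8.62 with shTOX-2 and 8.76 untransduced in CCRF-CEM, and in HPB-ALL 7.76, 7.39, 8.32 and 8.09, with shTOX-1 the lowest array of each line. E2F8, an atypical E2F repressor made in S phase, followed at 0.83 and 0.67 (fit 0.75 ± 0.14, limma adjusted p = 0.297). It stood at 9.81 with scramble, 9.12 with shTOX-1, 9.95 with shTOX-2 and 9.43 untransduced in CCRF-CEM, and at 9.70, 8.96, 9.63 and 9.18 in HPB-ALL. In each line scramble and shTOX-2 stood close together and shTOX-1 was the low array.

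A shTOX-1 array below like levels in scramble and shTOX-2 was also seen in NKG7, a granule protein of cytotoxic cells, which stood at 8.99 with scramble, 8.19 with shTOX-1 and 8.87 under shTOX-2 in CCRF-CEM and at 7.86, 7.33 and 7.98 in HPB-ALL. Its untransduced arrays stood at 8.50 and 7.31, so that in HPB-ALL shTOX-1 lay with untransduced cells. Of the 5 measured markers of natural killer cells 1, GNLY, was below the filter level on every array, and their summed intensity was 387 and 564 with shTOX-1 and shTOX-2 in CCRF-CEM, and in HPB-ALL 303 and 419, most of it from NKG7. The same order of the transduced arrays was seen in CDCA8, a subunit of the chromosomal passenger complex that steers chromosome attachment in mitosis, at 10.37, 9.93 and 10.47 in CCRF-CEM, and in HPB-ALL 10.52, 10.02 and 10.63, but its untransduced arrays were lower than shTOX-1, at 9.38 and 9.68. In SIAE, ZNF41 and KLHDC1 shTOX-1 was the lowest of the 4 arrays of each line, with hairpin differences of 0.48 to 0.63 in the lines. For SIAE a second, dimmer probe set gave 0.29 in CCRF-CEM and -0.39 in HPB-ALL, so its direction in HPB-ALL is uncertain. ZNF660 was higher with shTOX-2 by 0.77 and 0.56. LPAR4, a receptor for lysophosphatidic acid, was higher with shTOX-2 by 0.67 and 1.36, and PIM1, a kinase induced by cytokine signals, by 0.49 and 0.96. SHANK1, a scaffold protein of synapses, was higher by 1.18 and 0.48. Limma adjusted p-values of these genes lay between 0.306 and 0.534.

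Loci of microRNAs, short RNAs that silence transcripts through a seed at bases 2 to 8, stood on both sides. MIR1229 had the smallest p of all tested genes and stood lower in shTOX-2, and the 3 loci of the cluster within MCM7, MIR106B, MIR93 and MIR25, stood higher. MCM7 encodes a subunit of the replicative helicase, and its microRNAs are cut from its transcript. Their mature sequences are shown 5′ to 3′ with the seed in capitals because the seed sets which transcripts a microRNA can pair with; they were read from RefSeq (GRCh38.p14).
miR-106b-5p: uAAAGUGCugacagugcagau
miR-93-5p: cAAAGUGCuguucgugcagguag
miR-25-3p: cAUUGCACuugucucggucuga
miR-1229-3p: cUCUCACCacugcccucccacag
The first 2 share the seed AAAGUGC, so the cluster holds a pair of 1 seed family and a member of another, that of AUUGCAC. The arrays measured RNA of the loci after a protocol for long transcripts, so the values do not tell the hairpin precursor, the host transcript and the mature strand apart.

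MIR25 stood at 8.37 with scramble, 8.31 with shTOX-1, 8.77 with shTOX-2 and 8.04 untransduced in CCRF-CEM, and at 8.44, 8.48, 9.11 and 8.17 in HPB-ALL (fit 0.55 ± 0.14, limma adjusted p = 0.577). The shTOX-2 array was the highest of its line in both lines. MIR106B, whose seed family holds miR-93-5p too, stood at 7.35 with shTOX-1 and 7.69 under shTOX-2 in CCRF-CEM and at 7.21 and 7.89 in HPB-ALL (fit 0.51 ± 0.27, limma adjusted p = 0.755). MIR93 stood at 6.92 and 7.53 in CCRF-CEM and at 7.0 and 7.54 in HPB-ALL (fit 0.57 ± 0.31, limma adjusted p = 0.755). MCM7 itself was higher with shTOX-2 by 0.20 in CCRF-CEM and 0.39 in HPB-ALL (fit 0.29 ± 0.15, limma adjusted p = 0.755). Of the other tested loci with the seed AUUGCAC, MIR92B differed by 0.01 in each line, and MIR32 by 0.83 in CCRF-CEM and -0.10 in HPB-ALL. MIR1229 stood at 5.62 with scramble, 5.84 with shTOX-1, 4.77 with shTOX-2 and 5.76 untransduced in CCRF-CEM, and at 5.36, 5.94, 4.63 and 5.62 in HPB-ALL (fit -1.19 ± 0.15, limma adjusted p = 0.283). Both shTOX-2 arrays lay below the filter level, so the size is limited by background, and the 2 probe sets of the locus hold identical values and count once.

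**Figure D3:**
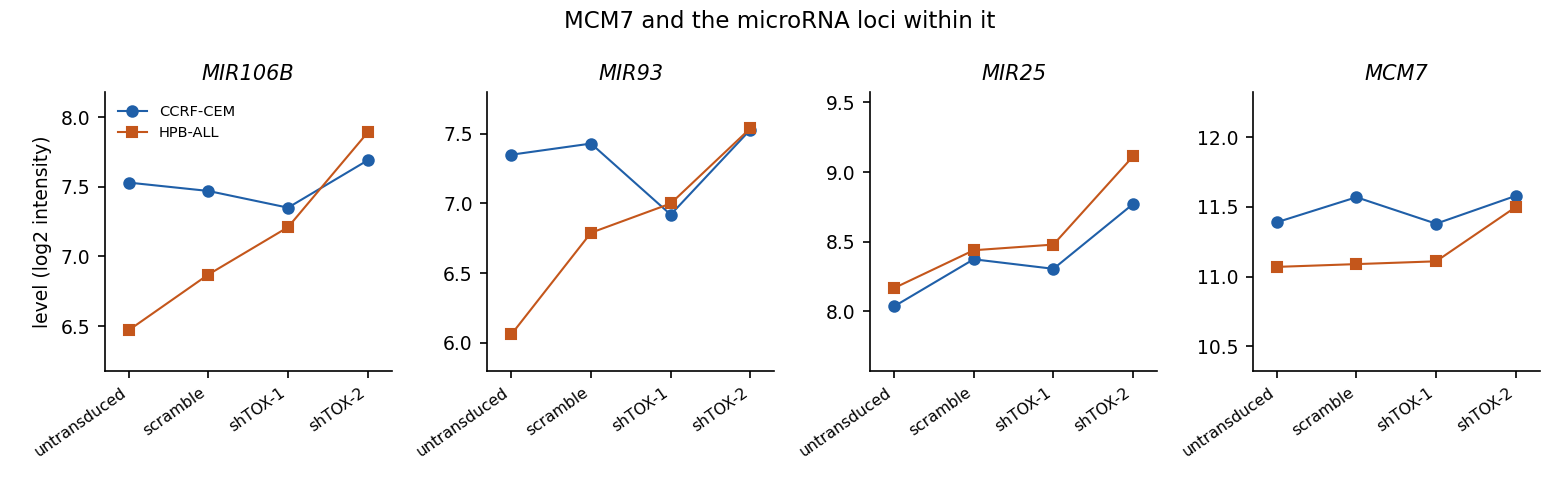
Level (log2 intensity) of the microRNA loci MIR106B, MIR93 and MIR25 and of MCM7, the gene that contains them, on each of the 8 arrays; blue circles are CCRF-CEM, orange squares HPB-ALL, 1 point per array. The shTOX-2 array is above the shTOX-1 array of the same line in all 4 panels, by 0.34 to 0.67 for the microRNA loci and by 0.20 and 0.39 for MCM7.

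MicroRNA loci as a class, noticed after the values were seen, stood apart from protein-coding genes. Of 279 tested loci 43 were higher in shTOX-2 by 0.25 in both lines and 7 lower, beside 2.75% and 7.44% of all genes tested. Their median hairpin difference reached 0.214 in CCRF-CEM and 0.107 in HPB-ALL, and that of the 7994 protein-coding genes was -0.066 and -0.044. The gap was present at each level above the filter: for loci with a mean above 7.5 (45 loci) the medians were 0.342 and 0.121, against -0.088 and -0.054 for protein-coding genes of that level, and for those from 5.18 to 5.8 (85 loci) 0.171 and 0.061 against 0.040 and 0.027. Without the filter, which adds dimmer genes, the median of the loci minus that of protein-coding genes went from 0.216 to 0.067. Against scramble, the loci had a median of -0.055 with shTOX-1 and 0.122 under shTOX-2 in CCRF-CEM, and in HPB-ALL -0.173 and -0.053; the untransduced arrays had 0.042 and -0.150. By position, 106 of the loci lie within a tested protein-coding gene, here called the host. Strand was not compared, so a host need not be the transcript from which its locus is cut. These loci had medians of 0.284 and 0.153, and the hosts -0.027 and 0.012. The genes that contain the loci thus did not share their shift as a set, whichever strand they lie on. Pair by pair, 53 of the 106 loci lay above their host in both lines.

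**Figure D4:**
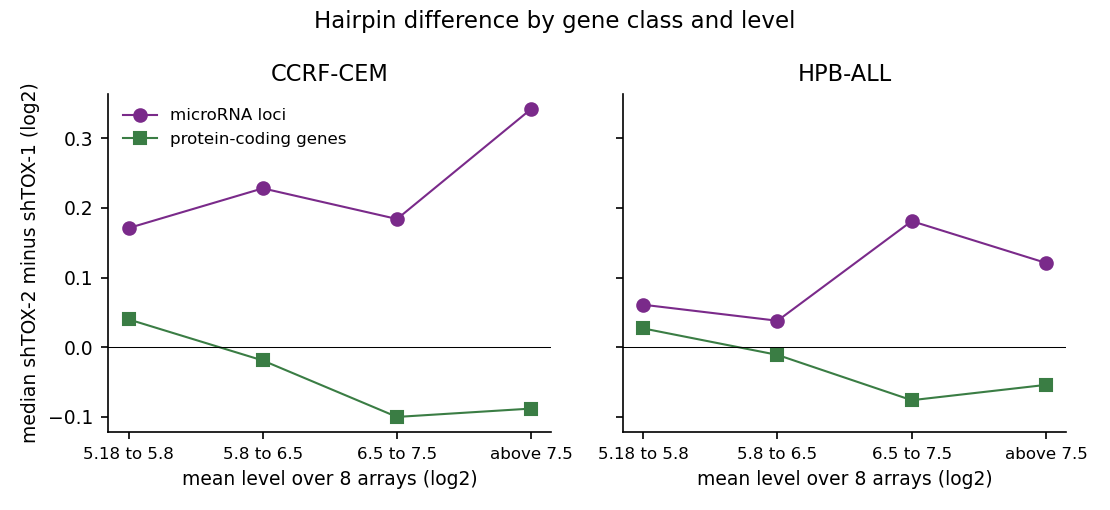
Median hairpin difference (shTOX-2 minus shTOX-1, log2) of microRNA loci (purple circles) and protein-coding genes (green squares) in 4 ranges of mean level, with CCRF-CEM on the left and HPB-ALL on the right. The microRNA medians lie above the protein-coding ones in all 8 comparisons, from 0.061 against 0.027 at the lowest levels in HPB-ALL to 0.342 against -0.088 at the highest in CCRF-CEM.

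Genes ordered as TOX is ordered were few. With steps of at least 0.25 from scramble to shTOX-1 and from shTOX-1 to shTOX-2 in both lines, 3 genes (0.0336%) stepped down and 0 (0%) stepped up. They were TOX itself, RCBTB2 and CCR8. RCBTB2, a protein with RCC1 repeats and a BTB domain, stood at 8.68 with scramble, 8.05 with shTOX-1 and 7.28 under shTOX-2 in CCRF-CEM, and at 8.49, 7.93 and 7.37 in HPB-ALL (hairpin difference -0.66 ± 0.16, limma adjusted p = 0.499). Its untransduced arrays, at 7.92 and 8.13, lay below the scramble arrays and near shTOX-1, so the order holds against scramble and not against untransduced cells. CCR8, a chemokine receptor of some T cell subsets, stood at 8.08 untransduced, 6.13 with scramble, 5.12 with shTOX-1 and 4.63 under shTOX-2 in CCRF-CEM, and at 8.03, 6.84, 6.15 and 4.56 in HPB-ALL. Its hairpin difference was -0.50 and -1.59 (fit -1.04 ± 0.28, limma adjusted p = 0.577), and 3 of its hairpin arrays lay below the filter level, both of those in CCRF-CEM among them, so the size is limited by background. Scramble itself lay below untransduced cells by more than the hairpins differed in CCRF-CEM, with untransduced minus scramble at 1.95 in that line and 1.18 in HPB-ALL.

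Against scramble, on the deposited scale, a commoner arrangement placed the hairpins on opposite sides of the control. With the same steps, 10 genes (0.112%) stood in the order shTOX-1, scramble, shTOX-2 from high to low in both lines, POGLUT2, ANKRD13C, REEP3, SERHL2 and PRMT6, an arginine methyltransferase, among them, and KRCC1 alone (0.0112%) stood in the reverse order. Without a minimum step, the order shTOX-1, scramble, shTOX-2 held for 443 genes (4.96%), against 395 (4.42%) in the order shTOX-1, shTOX-2, scramble, 295 (3.3%) in the downward TOX order and 208 (2.33%) in the upward one. Against untransduced cells in place of scramble, with steps of 0.25, 38 genes followed the downward TOX order and 16 the upward one. By contrast, 8 had shTOX-1 above and shTOX-2 below the control and 0 the reverse, so which of these arrangements was commoner turned with the control. Another 34 genes had the order shTOX-1, shTOX-2, untransduced from high to low, and 24 the order untransduced, shTOX-2, shTOX-1. Without a minimum step the former held for 966 genes (10.8%) and the downward TOX order for 640 (7.17%). At steps of 0.5 against scramble, RCBTB2 alone was left in TOX order.

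How far a construct stood outside the other 3 was counted for each construct in the same way. By 0.25 or more on the same side in both lines, shTOX-2 lay outside for 128 genes (1.43%), 105 lower and 23 higher, and shTOX-1 for 118 genes (1.32%), 30 lower and 88 higher. Scramble lay outside for 17 genes (0.19%) and untransduced cells for 957 (10.7%). At a distance of 0.5 there were 18 such genes for shTOX-2, all lower, and 6 for shTOX-1, 3 lower and 3 higher. The like size of the sets and their opposite balance of directions were thus seen at 0.25 and not at 0.5, and both were counted on the deposited scale.

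For shTOX-2, the genes farthest below the rest were TOX, MIR1229, UQCRC2, SCARNA6 and PAXIP1-AS2. SCARNA6, a small Cajal body RNA that guides modification of spliceosomal RNA, stood at 7.0 with scramble, 7.17 with shTOX-1, 6.32 with shTOX-2 and 8.24 untransduced in CCRF-CEM, and at 6.98, 6.98, 5.95 and 8.04 in HPB-ALL. PAXIP1-AS2, a long noncoding RNA antisense to PAXIP1, stood at 7.62, 7.45, 6.76 and 8.04 in CCRF-CEM and at 7.39, 7.72, 6.74 and 8.01 in HPB-ALL; the strand of the probe sets was not checked. The genes farthest above the rest were CAMK4, EVPLL, EID3, MIR25 and ARMC12. CAMK4, a calcium- and calmodulin-dependent kinase of T cells, stood at 7.43 with scramble, 8.08 with shTOX-1, 8.55 with shTOX-2 and 7.34 untransduced in CCRF-CEM, and at 5.31, 5.19, 6.15 and 5.22 in HPB-ALL, so the order of scramble and shTOX-1 differed between the lines.

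For shTOX-1, the genes farthest above the rest were MORN2, CPPED1, METTL2A, CD93 and MYDGF. MORN2, a protein with MORN repeats that acts in the uptake of bacteria, stood at 7.14 with scramble, 8.06 with shTOX-1, 7.22 with shTOX-2 and 6.83 untransduced in CCRF-CEM, and at 6.84, 8.07, 7.16 and 6.18 in HPB-ALL. CPPED1, a phosphatase, stood at 7.63, 8.37, 7.84 and 7.64 in CCRF-CEM and at 7.23, 8.33, 7.63 and 7.15 in HPB-ALL. In both genes shTOX-2 stood nearer to scramble than shTOX-1 did. Those farthest below the rest were SIAE, ASS1, KLHDC1, KCTD19 and SHANK1. ASS1, the enzyme that makes argininosuccinate for arginine synthesis, stood at 7.32 with scramble, 6.75 with shTOX-1, 7.85 with shTOX-2 and 9.91 untransduced in CCRF-CEM, and at 11.39, 10.68, 11.18 and 11.29 in HPB-ALL; its difference of 0.80 ± 0.56 was small beside its spread.

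Gene lists were described by counts and medians, beside a median of -0.042 over all tested genes, of which 58.5% had a negative fitted difference. No member of any list was called. Cell cycle genes stood toward the higher side. Of 25 tested S phase genes 22 had a positive difference and the median was 0.158 (0.079 in CCRF-CEM, 0.312 in HPB-ALL). Beside E2F8, E2F2, an activating E2F, was higher by 0.29 and 0.86, and PCNA, the sliding clamp of replication, by 0.31 and 0.32, whereas GINS2, a helicase subunit, differed by -0.67 and -0.30. Of 24 G2 and mitosis genes 20 had a positive difference, with a median of 0.096. MKI67, the proliferation antigen, was higher by 0.43 and 0.30, KIF23, a motor of cytokinesis, by 0.30 and 0.34, and TOP2A, the topoisomerase that untangles chromosomes, by 0.31 and 0.19; their limma adjusted p-values lay between 0.718 and 0.758. TRIP13, which is on neither list, stood the other way. Relative to scramble, the S phase median was -0.074 with shTOX-1, 0.028 with shTOX-2 and -0.661 untransduced in CCRF-CEM, and in HPB-ALL 0.017, 0.222 and -0.398. The hairpin medians were thus smaller in size than the gaps between untransduced cells and scramble, by far in CCRF-CEM and by less in HPB-ALL.

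**Figure D5:**
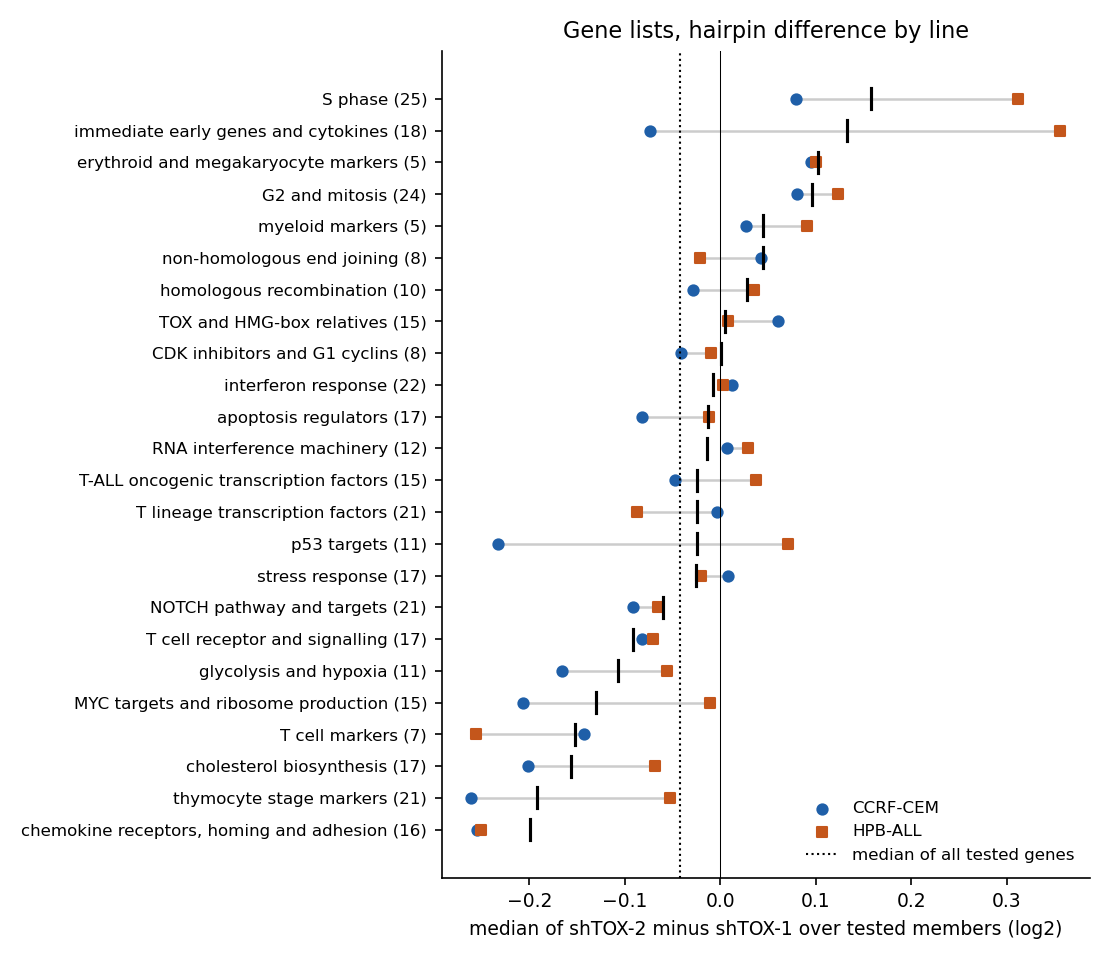
Median hairpin difference (shTOX-2 minus shTOX-1, log2) of each gene list with at least 5 tested members, with the number of members in brackets; blue circles are CCRF-CEM, orange squares HPB-ALL, the black tick is the median of the 2-line mean differences and the dotted line that of all tested genes (-0.042). S phase (0.158) and G2 and mitosis (0.096) lie to the right in both lines, and chemokine receptors, homing and adhesion (-0.199), thymocyte stage markers (-0.192) and cholesterol biosynthesis (-0.156) lie to the left in both.

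On the deposited scale several lists of T cell genes stood toward the lower side, whereas that of T lineage transcription factors was divided, with 11 of 21 negative and a median of -0.025. Of 16 tested genes of chemokine receptors, homing and adhesion, 13 had a negative difference and the median was -0.199 (-0.255 in CCRF-CEM, -0.251 in HPB-ALL); 5 were lower by 0.25 in both lines. S1PR4, a receptor for the egress signal sphingosine-1-phosphate, had the smallest p of the list. It stood at 7.77 with scramble, 7.66 with shTOX-1, 7.04 with shTOX-2 and 7.39 untransduced in CCRF-CEM, and at 7.60, 7.45, 6.83 and 6.95 in HPB-ALL (fit -0.62 ± 0.14, limma adjusted p = 0.499). Its shTOX-2 array was the lowest of each line. ICAM3, an adhesion molecule of resting leukocytes, differed by -0.26 and -0.93, and SELPLG, the ligand of P-selectin, by -0.27 and -0.45.

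All 7 tested T cell markers had a negative fitted difference, with a median of -0.152, and 4 were negative in both lines. CD247, the zeta chain of the T cell receptor complex, stood at 8.53 with scramble, 8.90 with shTOX-1, 8.33 with shTOX-2 and 8.66 untransduced in CCRF-CEM, and at 6.18, 6.14, 5.46 and 6.65 in HPB-ALL (fit -0.62 ± 0.22, limma adjusted p = 0.698). SH2D1A, the adaptor SAP of SLAM receptors, differed by -0.51 and -1.30; it stood at 10.86 with shTOX-1 and 10.35 under shTOX-2 in CCRF-CEM, and at 7.73 and 6.43 in HPB-ALL. On the list of T cell receptor and signalling genes 13 of 17 were negative, and on that of thymocyte stage markers 16 of 21, with medians of -0.092 and -0.192. Members stood on both sides: S1PR1, another receptor of sphingosine-1-phosphate, differed by -0.66 and -0.24, whereas CD27 differed by 0.70 and 0.18, and IL7R, the receptor of interleukin-7, by 0.66 and 1.82. IL7R is an example of a gene whose hairpin arrays lay on different sides of scramble by line, at 8.10 and 8.76 against 6.59 with scramble in CCRF-CEM, and at 5.47 and 7.29 against 7.33 in HPB-ALL. Median centring moved all genes alike, to a median of 0.062, so the list medians minus that of all genes could not change. They were -0.05 for the T cell receptor list, -0.15 for thymocyte markers, -0.11 for T cell markers and -0.157 for homing genes. Quantile normalization gave -0.028, -0.171, -0.086 and -0.187 in the same order. After centring, negative members numbered 8 of 17, 14 of 21, 5 of 7 and 11 of 16, with medians of 0.012, -0.088, -0.048 and -0.095.

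Among the other lists, 14 of 17 cholesterol biosynthesis genes and 13 of 15 genes of MYC targets and ribosome production had a negative difference, with medians of -0.156 and -0.130, or -0.114 and -0.088 relative to that of all genes; none had an unadjusted p under 0.05. Of 21 genes of the NOTCH pathway 14 were negative (median -0.060, or -0.018 relative to that of all genes). DTX1 led this list, SHQ1, an assembly factor of box H/ACA ribonucleoproteins and a NOTCH target in T-ALL, differed by -0.26 and -0.59, and MYC by -0.66 in CCRF-CEM and -0.06 in HPB-ALL. Of 18 immediate early genes and cytokines 13 were positive, but the medians of the lines, -0.074 in CCRF-CEM and 0.356 in HPB-ALL, had opposite signs. DUSP6, the phosphatase that switches off ERK, went against that list at -1.09 and -0.45. The interferon list was balanced at 11 positive and 11 negative, with BST2, which tethers virions to the cell, at -0.42 and -0.60 and IFI44 at 0.52 and 0.40. The end joining list had 4 of its 8 genes lower, XRCC4 among them, and 4 higher, and homologous recombination had 6 higher and 4 lower of 10. The RNA interference machinery had 0 of 12 members past an unadjusted p of 0.05 and a median of -0.014. Of 11 p53 targets 7 were negative and 4 positive (median -0.025, or 0.017 relative to that of all genes). Their line medians had opposite signs, -0.233 in CCRF-CEM and 0.071 in HPB-ALL. Of 17 apoptosis regulators 9 were negative and 8 positive (median -0.013, or 0.029 relative to that of all genes). Neither list thus stood lower than all genes, of which 58.5% were negative. The members with the smallest p were lower: RRM2B, a ribonucleotide reductase subunit, at -0.37 and -0.67 among p53 targets, and BAK1 at -0.52 and -0.24 and BAD at -0.54 and -0.49 among apoptosis regulators.

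Within a line there was 1 array per hairpin, so the values have no replicate check. A hairpin difference of at least 1 was seen for 41 genes in CCRF-CEM (0.459%) and 67 in HPB-ALL (0.75%). In CCRF-CEM the largest were EPAS1, a hypoxia-inducible transcription factor, and STAP1, an adaptor of B cell and cytokine receptors. EPAS1 stood at 6.36 with scramble, 8.31 with shTOX-1, 5.96 with shTOX-2 and 6.16 untransduced, a difference of -2.35 that came from 1 high array; in HPB-ALL it stood at 5.70, 5.32, 5.71 and 5.54. STAP1 had the same form, at 5.97, 8.10, 5.76 and 6.30 in CCRF-CEM, and at 5.88, 6.24, 5.71 and 6.37 in HPB-ALL. Without the HPB-ALL shTOX-1 array both passed, at -2.22 (limma adjusted p = 0.0361) and -2.35 (limma adjusted p = 0.022), since the hairpin comparison then rests on CCRF-CEM; with all arrays they did not. ETV5, an ETS factor downstream of ERK, differed by -1.48 in CCRF-CEM and -0.13 in HPB-ALL, and BAG2, a co-chaperone of HSP70, by -1.39 and -0.39. On the higher side GTF2I, a general transcription factor, stood at 9.36 with scramble, 7.75 with shTOX-1, 9.02 with shTOX-2 and 9.32 untransduced in CCRF-CEM, again with shTOX-1 as the array apart, and at 9.20 and 9.34 with the hairpins in HPB-ALL. TREML1, a receptor of platelets, was higher by 1.43 and 0.48. MIR3135A differed by 1.74 and -0.44, and MIR4747 by 1.19 and 0.55.

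In HPB-ALL the largest differences were those of MPO, CYTL1 and SNAI2 on the higher side and of CASC15 and CCR8 on the lower. MPO, the peroxidase of myeloid granules, stood at 7.03 with scramble, 5.10 with shTOX-1, 7.94 with shTOX-2 and 4.83 untransduced, a difference of 2.84 whose size is limited by background, since the shTOX-1 and untransduced arrays lay below the filter level; in CCRF-CEM it stood at 4.47 to 5.45, around the filter level. CYTL1, a secreted cytokine-like protein, stood at 10.59, 9.05, 11.12 and 11.31 in HPB-ALL and between 5.56 and 6.16 in CCRF-CEM. SNAI2, a transcriptional repressor of the SNAIL family, stood at 5.82, 5.74, 7.79 and 5.18, with shTOX-2 as the high array, and below the filter level on all 4 CCRF-CEM arrays. CASC15, a long noncoding RNA, stood at 6.57, 7.85, 5.84 and 7.80, so that shTOX-1 lay with untransduced cells. CFAP418, a ciliary protein, differed by -1.42 in HPB-ALL and -0.31 in CCRF-CEM. MT1G, a metallothionein that binds zinc and copper, was higher with shTOX-2 by 1.70 in HPB-ALL and 0.90 in CCRF-CEM, but its fitted difference was 1.30 ± 0.67. Its arrays ran from 6.05 to 7.46 in CCRF-CEM and from 7.86 to 10.63 in HPB-ALL. Untransduced minus scramble had opposite signs in the lines, 1.41 in CCRF-CEM and -2.07 in HPB-ALL. Metallothionein genes are near-identical, so probe sets may read several of them. MIR1299 differed by 0.68 in CCRF-CEM, with its hairpin arrays below the filter level, and 0.66 in HPB-ALL.

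The test of whether the hairpin difference itself differed between lines called 0 of 8930 genes, with 75 at an unadjusted p under 0.05 and a smallest limma adjusted p of 1. It has 2 residual degrees of freedom and takes its error from the gap between scramble and untransduced arrays. Against scramble, limma called 0 genes for shTOX-1, with 549 at an unadjusted p under 0.05, and 0 for shTOX-2, with 505. With the arrays of the compared constructs alone the latter comparison had 102 calls. That fit leaves 1 residual degree of freedom, so its calls rest on a weak estimate of error. These comparisons share the scramble arrays. TOX stood 0.38 and 0.43 below scramble with shTOX-1 in CCRF-CEM and HPB-ALL, smaller than its hairpin differences of -0.79 and -1.41.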

How the data were processed

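Total RNA of 8 cultures was labelled by the Affymetrix WT Plus protocol and hybridised to 1 array each, per the labels' protocols. The authors deposited a value for every probe set on every array, a log2 intensity to judge by its range; how they corrected background and normalized is not given in the sources used here. Of 53617 probe sets 16098 carried 1 gene symbol in the platform annotation, which can be old, and stood for 14884 genes; the probe set with the highest mean was taken for the 779 genes with several. Testing was limited to the 8930 genes whose mean reached the 40th percentile (log2 5.18). The 13009 unnamed probe sets at that level gave 0 calls in limma, and 683 at an unadjusted p under 0.05.

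The model was fitted in limma 3.58.1 under R 4.3.3 (lmFit and eBayes without trend) to all 8 arrays, with cell line and the 4 constructs as terms, which leaves 3 residual degrees of freedom. A Benjamini-Hochberg adjusted p under 0.05 made a call, and values after ± are standard errors. The line term is the replicate block, because replicate numbers stand for the cell lines. The difference between lines came from a fit that pools scramble and untransduced arrays. The fit was tested on simulated data. The number of arrays limits the precision.

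The comparison, the gene lists (29, of which 6 hold cell type markers) and the rule for named genes were chosen with earlier results of these data known. The rule took 12 genes a side by p with the same sign in both lines, 6 a side by the smaller line difference, 6 a side in TOX order, 5 a side apart for each hairpin, 5 a side for each line, up to 4 a list by p, and the HMG-box genes. MicroRNA loci as a class, their hosts and seeds, PRMT6, MCM7 and NSFP1 were chosen after values were seen. Of the 279 tested microRNA loci 253 matched RefSeq mature sequences. Alternatives covered the line term, arrays used, filter, probe set rule, scaling and variance model, and leaving out each array.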

Additional observations from a re-analysis of the deposited data

Results flagged for a closer look

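Of the 163 genes taken by the naming rule 26 had hairpin differences of opposite signs in the lines, with 1 array per hairpin and line; 6 of these have hairpin differences given above, and so has MIR32, which is outside the rule. EPAS1 differed by -2.35 in CCRF-CEM and 0.38 in HPB-ALL, a difference between lines of 2.73 ± 0.38. MPO differed by -0.52 and 2.84, a difference of 3.35 ± 1.31. MIR3135A differed by 1.74 and -0.44, a difference of -2.18 ± 0.41. SNAI2 differed by -0.14 and 2.05 (2.19 ± 0.52), CASC15 by 0.05 and -2.01 (-2.06 ± 0.82) and TOX2 by 0.14 and -0.58 (-0.72 ± 0.35). MIR32 differed by 0.83 and -0.10, a difference of -0.93 ± 0.35. None of these differences between lines passed, with a limma adjusted p of 1 for each.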

How the results depend on the processing

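The hairpin comparison had 0 called genes in every alternative run except 1 that left out an array: without the HPB-ALL shTOX-1 array 2 genes were called, EPAS1 (-2.22, limma adjusted p = 0.0361) and STAP1 (-2.35, limma adjusted p = 0.022), the rest of the arrays left out giving 0. Leaving out arrays gave 0 to 1 calls for shTOX-1 against scramble and 0 for shTOX-2 against scramble, and the counts at an unadjusted p under 0.05 ran from 251 (without the HPB-ALL shTOX-2 array) to 518 lower and from 95 to 220 higher. Without the CCRF-CEM shTOX-2 array 266 were lower. With the arrays of the compared constructs alone, which leaves 1 residual degree of freedom, shTOX-2 against scramble had 102 calls. In the hairpin comparison run that way, 275 genes were higher with shTOX-2 at an unadjusted p under 0.05. Without the line term, the replicate block, 134 genes were lower and 27 higher, and with the controls pooled 296 and 85. Higher genes numbered 268 without a filter and 83 with the 60th percentile filter, and by 0.25 in both lines 396 and 119. Median centring gave 183 lower and 395 higher, and 280 and 628 by 0.25 in both lines. The median of microRNA loci minus that of protein-coding genes, 0.216, was 0.067 without a filter and 0.192 to 0.298 in the other alternatives; these alternatives and those for counts in both lines were chosen after seeing the data.

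Genes in TOX order numbered 3 downward and 0 upward against scramble, 38 and 16 against untransduced cells and 1 and 0 at steps of 0.5. At a distance of 0.5 the genes apart numbered 1 for scramble, 6 for shTOX-1, 18 for shTOX-2 and 253 for untransduced cells. For 102 genes, 1798 of 1808 values kept direction and side of the threshold. Most of these genes were chosen for like signs in both lines, and none was called in the main fit. The count therefore was largely fixed by the choice of genes and does not measure how stable the differences are. The values of 7 genes, which were not chosen for like signs, turned when an array was left out. They ranged over -2.22 to 0.25 for EPAS1, -0.29 to 1.59 for MIR3135A, -0.25 to 0.98 for MIR32, -2.17 to 0.21 for CASC15, -0.13 to 2.04 for SNAI2, -0.61 to 0.17 for TOX2 and -0.059 to 0.082 for TOX4. The array was CCRF-CEM shTOX-1 for EPAS1, MIR3135A and MIR32, HPB-ALL shTOX-1 for CASC15, HPB-ALL shTOX-2 for SNAI2 and TOX2, and CCRF-CEM shTOX-1 or HPB-ALL shTOX-2 (-0.05) for TOX4; the cause was not tested. TOX has 1 probe set, so the alternative with its other probe sets was not run.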
